A study of Mus musculus with 12 samples.

Results

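The TGF-beta ligand, receptor and feedback genes examined here are 9 of the 52550 genes in the count table. They were chosen by symbol as the ligands *Tgfb1*, *Tgfb2*, *Tgfb3* and *Inhba*, the receptors *Tgfbr1*, *Tgfbr2* and *Tgfbr3*, the latency protein *Ltbp1* and the feedback inhibitor *Smad7*. All 9 had enough counts to be tested, among 15885 tested protein-coding genes. The question was how this signaling pathway, at the level of its own transcripts, responded to lipopolysaccharide (LPS), a bacterial endotoxin, in neonatal lungs with 1 or both working copies of the adrenomedullin gene *Adm*.

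TGF-beta is made as a precursor that is cut by a convertase and stays bound to its own propeptide, and through it to a latent TGF-beta binding protein that anchors it in the matrix, until integrins, thrombospondin or proteases release it. The free ligand binds the type II receptor, which recruits and phosphorylates the type I receptor, and receptor-regulated Smads then carry the signal to the nucleus, where one of the genes they switch on is the inhibitor *Smad7*. In the developing lung this pathway is known for its part in septation, in the fibroblasts that lay down elastin and collagen, and in restraining inflammation.

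Bulk RNA sequencing had been performed on whole lungs of 12 mice of strain C57Bl/6J on postnatal day 5, 1 library per mouse and 3 in each of 4 groups. WT (Adm+/+) and Adm+/- mice had received 1 intraperitoneal injection a day over 3 days, either of LPS from Escherichia coli O55:B5 at 6 mg/kg or of the same volume of PBS, and lungs were collected 6 h after the last injection. Lungs are named by library number. In WT mice these are 3, 4 and 5 for PBS and 9, 10 and 11 for LPS, and among Adm+/- mice PBS was given to 6, 7 and 8 and LPS to 1, 2 and 12. The Adm+/- line came from a 129/SvEv background and had been backcrossed to C57BL/6J, and heterozygotes were used because mice without any *Adm* die as embryos. The labels name no litter or sex, so p-values here measure the spread between these lungs only.

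Total counts per library ranged from 22382535 to 38062873. Levels are given as CPM, the usual library-scaled unit in which a gene's count is set against all counts of tested genes in its library, adjusted by the trimmed mean of M values (TMM), and levels of different genes are compared only per kilobase (kb) of exon. *Adm* itself lay between 3.96 and 7.09 CPM in WT PBS and between 2.87 and 4.58 CPM in Adm+/- PBS, and with LPS between 4.46 and 8.15 and between 3.74 and 6.28 CPM, so the genotypes overlapped in both treatments (edgeR log2 fold change of Adm+/- against WT -0.50 ± 0.32 SE in PBS, adjusted p = 0.999, and -0.55 ± 0.31 in LPS, adjusted p = 0.48). The study reports that Adm+/- mice were checked by genotyping and by RT-PCR of *Adm* in lung. The labelled tissue was borne out by its markers, since the summed level of 6 lung epithelial genes was 9755 to 13841 CPM in the 12 libraries and did not fall below that of any other list. WT PBS replicate 5 and Adm+/- PBS replicate 6 stood apart from the rest: the noncoding gene *Gm26917* took 16.6% and 13.3% of all their counts, against 5.42% to 7.40% in the other 10 libraries. Where leaving both out changed a call of a pathway gene named here, or moved a called value by over 1.5 times, the value without them is given. In addition, 6 skeletal muscle markers summed to 324 to 1084 CPM in WT LPS and to at most 24.3 CPM elsewhere, and 6 squamous epithelium markers to 23.3 to 2798 CPM in WT LPS and to at most 37.5 CPM elsewhere. Summed over 5 cartilage markers, the level was 183 CPM in WT PBS replicate 5 and 6.72 to 53.3 CPM in the other libraries. The part of such tissue in the values of these lungs was not tested. In bulk tissue, fewer cells of a type and less RNA per cell cannot be told apart.

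A gene was called when its Benjamini-Hochberg adjusted p in edgeR's quasi-likelihood test was below 0.05 and its log2 fold change was beyond 0.5 in either direction. In WT mice, LPS changed 3 of the 9 genes by this criterion, 1 higher and 2 lower, where 17.6% of all tested genes were called (10.5% higher and 7.09% lower). In Adm+/- mice it changed 6 of the 9, 4 higher and 2 lower, against a background of 25.0% of tested genes (12.8% higher and 12.2% lower). The median log2 fold change of the 9 was 0.13 in WT and 0.49 in Adm+/- mice, with 0.01 and -0.01 over all tested genes. The 3 libraries of each treatment did not overlap for 4 of the 9 genes in WT mice (2 higher and 2 lower, where 36.2% of tested genes did not overlap, 18.3% higher and 17.9% lower) and for 8 of the 9 in Adm+/- mice (5 higher and 3 lower, where 53.7% did not, 26.6% higher and 27.1% lower), the exception in Adm+/- mice being *Ltbp1*.

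In response to LPS the ligand genes parted: *Tgfb2* and *Tgfb3* were down-regulated in both genotypes, to levels of 0.37 to 0.51 of those in PBS, while *Tgfb1* and the activin gene *Inhba* were up-regulated in Adm+/- lungs. Of the receptor genes, *Tgfbr3* rose in both genotypes and *Tgfbr2* in Adm+/- lungs. *Ltbp1* and *Smad7* were not called in any comparison.

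Upstream sequence is shown for 4 of the genes, chosen as one that rose and one that fell among the ligands, the most abundant receptor, and the activin gene with the lowest level. RefSeq promoters on GRCm38.p6 were held for 6 of the 9 genes; *Tgfb3*, *Tgfbr3* and *Smad7* had no entry. Each stretch is the 250 bases before a RefSeq start site, 5′ to 3′ on the strand of the gene. Capitals mark matches, on either strand, to the TATA box core (TATAAA), the E-box (CACGTG), the cAMP response element (TGACGTCA), the AP-1 motif (TGANTCA), the Smad element (GTCTAGAC), the shorter Smad motif (CAGACA) and the kappa B motif; both Smad motifs share letters, and none of the matches below overlap one another. Positions are counted back from the start site, the base before it being -1.

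*Tgfb1*, chr7:25686752-25687001 of GRCm38.p6, plus strand, is rich in G and C (75.2%, where the median of 32851 promoters is 52.4%) and holds 1 kappa B match at -140 to -131. *Tgfb2*, chr1:186705990-186706239, minus strand, has a TATA box core at -31 to -26, an E-box at -51 to -46 and a shorter Smad motif at -204 to -199. *Tgfbr2*, chr9:116175364-116175613, minus strand, holds none of the 7 motifs. *Inhba*, chr13:16011601-16011850, plus strand, is the poorest of the 4 in G and C (43.2%) and has a TATA box core at -91 to -86.
Tgfb1: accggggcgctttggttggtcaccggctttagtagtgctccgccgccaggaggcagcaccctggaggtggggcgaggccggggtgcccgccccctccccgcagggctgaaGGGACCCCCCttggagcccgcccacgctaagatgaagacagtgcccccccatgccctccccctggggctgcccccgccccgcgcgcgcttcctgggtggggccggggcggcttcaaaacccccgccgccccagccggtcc
Tgfb2: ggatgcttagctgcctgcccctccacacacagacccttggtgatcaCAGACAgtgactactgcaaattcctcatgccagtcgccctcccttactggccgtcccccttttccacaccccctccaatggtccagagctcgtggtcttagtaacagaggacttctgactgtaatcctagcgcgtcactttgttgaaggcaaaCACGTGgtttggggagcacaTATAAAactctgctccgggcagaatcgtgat
Tgfbr2: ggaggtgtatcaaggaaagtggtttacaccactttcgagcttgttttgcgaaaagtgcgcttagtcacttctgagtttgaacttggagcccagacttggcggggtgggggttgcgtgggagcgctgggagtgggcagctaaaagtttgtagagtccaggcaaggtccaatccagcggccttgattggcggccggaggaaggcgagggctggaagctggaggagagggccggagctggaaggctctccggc
Inhba: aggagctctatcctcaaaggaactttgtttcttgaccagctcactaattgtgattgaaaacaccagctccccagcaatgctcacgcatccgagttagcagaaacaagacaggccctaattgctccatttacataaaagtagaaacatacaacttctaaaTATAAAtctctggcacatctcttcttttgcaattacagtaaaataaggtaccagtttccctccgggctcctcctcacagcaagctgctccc

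A TATA box core lies in 12.4% of all 32851 promoters of that length, an E-box in 6.02%, the shorter Smad motif in 17.1%, a kappa B match in 7.25%, the AP-1 motif in 6.75%, the cAMP response element in 1.55% and the full Smad element in 0.167%. The matches describe these letters only. Of the 2 other genes with a promoter, *Ltbp1* has 1 cAMP response element at -73 to -66 of its start at 75005529 on chromosome 17, and *Tgfbr1* has no match before its start at 47353222 on chromosome 4; each has a further RefSeq start downstream, with 2 and 1 shorter Smad motifs before it.

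*Tgfb1* (ENSMUSG00000002603, chr7:25687002-25705077 of mm10, plus strand) encodes the ligand best known for restraining immune cells and driving fibrosis. Its level was 97.4, 96.7 and 121 CPM in WT PBS lungs 3, 4 and 5 and 125, 113 and 107 CPM in WT LPS lungs 9, 10 and 11. In Adm+/- mice it was 111, 91.5 and 86.0 CPM with PBS (lungs 6, 7 and 8) and 140, 136 and 141 CPM with LPS (lungs 1, 2 and 12), and this order of lungs is kept for all genes. The WT groups overlapped, whereas all 3 Adm+/- LPS lungs lay above the other 9 lungs. The log2 fold change with LPS was 0.13 ± 0.12 (SE) in WT mice (edgeR adjusted p = 0.459) and 0.53 ± 0.12 in the Adm+/- mice (adjusted p = 0.00703), a rise of 1.44-fold. The Adm+/- call was lost without PBS replicate 7 or 8, where the value was 0.49 or 0.46, and it held without both libraries that stood apart (0.65, adjusted p = 0.000451), while the test against a minimum change of 0.5 (glmTreat) did not pass it (adjusted p = 0.614).

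*Tgfb2* (ENSMUSG00000039239, chr1:186622792-186705989, minus strand) encodes the isoform that lung epithelium and mesenchyme need during development. Its level fell from 134, 112 and 106 CPM in WT PBS to 48.2, 64.6 and 65.9 CPM in WT LPS. In Adm+/- lungs it fell from 113, 139 and 157 CPM in PBS to 49.0, 58.1 and 53.0 CPM in LPS. Treatments did not overlap in either genotype, and the highest LPS lung stood at 65.9 CPM against 106 CPM in the lowest PBS lung. The log2 fold change was -0.98 ± 0.16 in WT mice (edgeR adjusted p = 0.00169) and -1.35 ± 0.16 in the Adm+/- mice (adjusted p = 0.000143), or 0.507 and 0.391 of the level in PBS. Both calls held under every alternative run, with values of -1.06 to -0.85 in WT and -1.47 to -1.24 in Adm+/- mice.

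*Tgfb3* (ENSMUSG00000021253, chr12:86056745-86079041, minus strand) encodes the isoform known for palate fusion and early lung branching. WT PBS lungs had 61.1, 46.2 and 56.5 CPM and WT LPS lungs 21.5, 25.2 and 28.1 CPM. Adm+/- PBS lungs had 50.03, 59.3 and 64.8 CPM and Adm+/- LPS lungs 21.0, 23.7 and 19.9 CPM. It showed the largest fall of the 9 genes in both genotypes, with no overlap between treatments: -1.13 ± 0.15 in WT mice (edgeR adjusted p = 0.000602) and -1.43 ± 0.15 in the Adm+/- mice (adjusted p = 8.79e-05). Both calls held under every alternative. The gene lies inside a stretch that *Ttll5* also spans on the opposite strand, with 0 shared exon bases, and *Ttll5* itself had a log2 fold change of -0.56 and -0.66 in the fit of all annotated genes (adjusted p = 0.0113 and 0.00245); the strand setting of the counting is not given in the sources used here, and its part in the *Tgfb3* value was not tested. The opposite-strand genes *Gm48008* and *Gm37804* cover 7.60% and 4.82% of its exon bases, with at most 8 and 37 counts in a library, and *Gm37804* fell in WT mice in the same fit (-1.48, edgeR adjusted p = 0.0242).

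**Figure D1:**
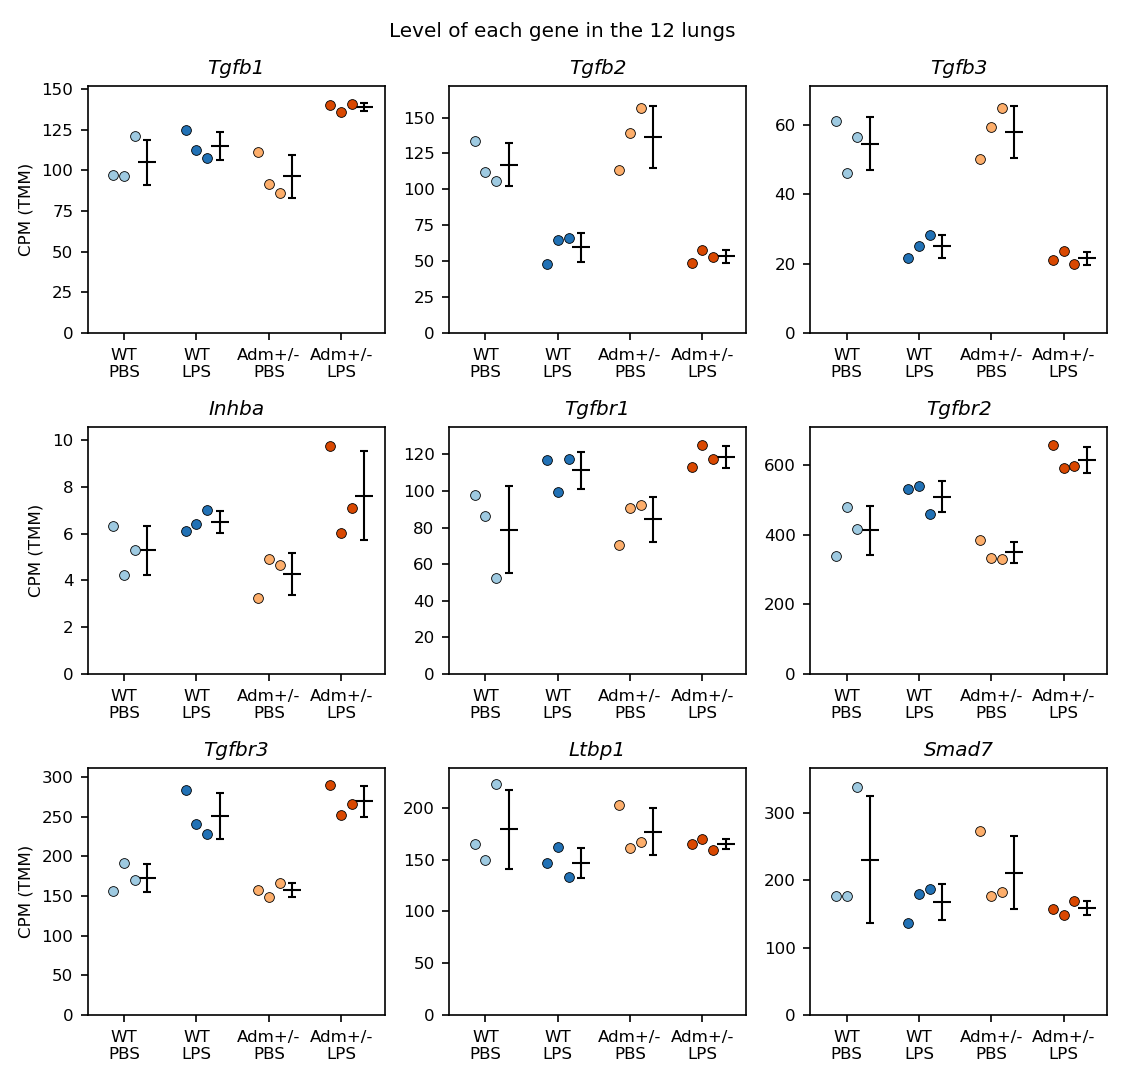
TMM-scaled CPM (linear axis from 0) of each of the 9 genes in the 12 lungs, by group; points are single lungs, and the bar beside them is the mean with its SD (n = 3). *Tgfb2* and *Tgfb3* sit lower in all 6 LPS lungs than in all 6 PBS lungs, and *Tgfb1* and *Tgfbr2* are highest in the 3 Adm+/- LPS lungs.

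*Inhba* (ENSMUSG00000041324, chr13:16011851-16031621, plus strand) encodes the subunit of activin A, a ligand that signals through the same Smads by its own receptors. It was the least abundant of the 9, at 6.33, 4.22 and 5.31 CPM in WT PBS and 6.10, 6.40 and 7.01 CPM in WT LPS, from 62 to 260 counts per library. Adm+/- lungs had 3.26, 4.93 and 4.65 CPM in PBS and 9.72, 6.03 and 7.09 CPM in LPS. The WT groups overlapped and the Adm+/- groups did not. The log2 fold change was 0.30 ± 0.22 in WT mice (edgeR adjusted p = 0.361) and 0.82 ± 0.22 in the Adm+/- mice (adjusted p = 0.0169). The Adm+/- call was lost without LPS replicate 1 (0.61, adjusted p = 0.0791), without PBS replicate 6 (0.67, adjusted p = 0.0614) and with glmTreat (adjusted p = 0.169), and it remained without both libraries that stood apart (0.67, adjusted p = 0.0473).

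With the ligands set beside each other per kb of exon, the makeup of the 3 TGF-beta transcripts turned over with LPS. In PBS lungs, *Tgfb1* made up 36.5% ± 4.4 (SD, n = 3) of their sum in WT and 32.2% ± 6.3 in Adm+/- mice, and in LPS lungs 56.4% ± 5.6 and 63.9% ± 2.3. The highest share of *Tgfb1* in any PBS lung was 40.7% and the lowest in any LPS lung 52.0%. The share of *Tgfb2* was 35.4% and 39.2% in PBS and 25.4% and 21.3% in LPS, and that of *Tgfb3* was 28.1% and 28.6% in PBS and 18.2% and 14.7% in LPS, in WT and Adm+/- mice in turn. The summed level of the 3 genes was 57.2 ± 4.4 and 59.8 ± 3.4 CPM per kb in PBS and 40.5 ± 0.9 and 43.2 ± 0.8 CPM per kb in LPS. These shares are a description with no test, and they depend on the length used for *Tgfb1*, whose longest transcript (2573 bases) is shorter than its exon union (5042 bases): with longest transcripts *Tgfb1* held 51.1% and 46.1% in PBS and 70.1% and 76.3% in LPS. The size of the fall in the sum depends on this length too. With longest transcripts the sum was 73.2 to 84.4 CPM per kb in WT PBS and 62.9 to 64.2 in WT LPS. In Adm+/- mice it was 80.2 to 83.2 CPM per kb in PBS and 70.2 to 71.2 in LPS.

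**Figure D2:**
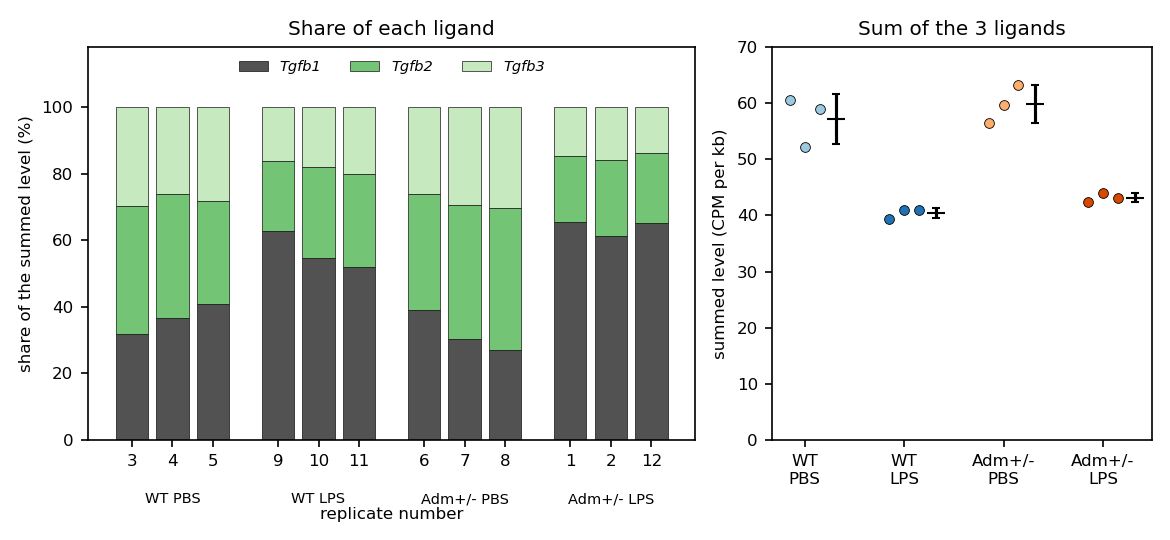
Left, stacked bars of the share (%) of *Tgfb1*, *Tgfb2* and *Tgfb3* in their summed level per kb of exon, 1 bar per lung with its replicate number; right, the summed level in CPM per kb, with points for lungs and a bar for the mean and SD (n = 3). The dark *Tgfb1* part covers at most 40.7% of any PBS bar and at least 52.0% of any LPS bar, while the sum is lower in all 6 LPS lungs than in all 6 PBS lungs.

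*Tgfbr2* (ENSMUSG00000032440, chr9:116084293-116175360, minus strand) encodes the type II receptor, the kinase that binds the ligand first. Its level was 338, 480 and 417 CPM in WT PBS and 530, 539 and 458 CPM in WT LPS. In Adm+/- mice it was 384, 334 and 331 CPM in PBS and 658, 590 and 598 CPM in LPS. The WT groups overlapped, and the 3 Adm+/- LPS lungs lay above the other 9. The log2 fold change was 0.31 ± 0.13 in WT mice (edgeR adjusted p = 0.11) and 0.82 ± 0.13 in the Adm+/- mice (adjusted p = 0.000873), a rise of 1.76-fold that held under every alternative (0.77 to 0.89).

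*Tgfbr3* (ENSMUSG00000029287, chr5:107106570-107289629, minus strand) encodes betaglycan, the coreceptor that hands *Tgfb2* protein to the type II receptor. WT lungs had 156, 192 and 170 CPM in PBS and 283, 241 and 228 CPM in LPS. Adm+/- lungs had 158, 149 and 167 CPM in PBS and 289, 252 and 266 CPM in LPS. No PBS lung reached the lowest LPS lung in either genotype. The log2 fold change was 0.54 ± 0.11 in WT mice (edgeR adjusted p = 0.00717) and 0.77 ± 0.11 in the Adm+/- mice (adjusted p = 0.000522). The Adm+/- call held under every alternative, whereas the WT call was lost with glmTreat (adjusted p = 0.696), without PBS replicate 3 (0.47), without LPS replicate 9 (0.44) and in a fit of the 6 WT libraries alone (adjusted p = 0.0599). A same-strand noncoding gene shares 297 bases, or 4.54%, of its exons.

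*Tgfbr1* (ENSMUSG00000007613, chr4:47353222-47414931, plus strand) encodes the type I receptor, the kinase that phosphorylates the Smads. It stood at 97.9, 86.5 and 52.3 CPM in WT PBS and at 117, 99.6 and 117 CPM in WT LPS, and at 70.5, 90.6 and 92.5 CPM in Adm+/- PBS and 113, 125 and 117.5 CPM in Adm+/- LPS. Treatments did not overlap in either genotype, yet neither change was called: 0.50 ± 0.19 in WT mice (edgeR adjusted p = 0.0876) and 0.49 ± 0.19 in the Adm+/- mice (adjusted p = 0.0776). The lowest value of each PBS group was that of the library that stood apart. Without both of these libraries the values were 0.27 (adjusted p = 0.0645) and 0.37 (adjusted p = 0.013), and without WT PBS replicate 3 the WT value was 0.68 and passed the call (adjusted p = 0.0344).

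**Figure D3:**
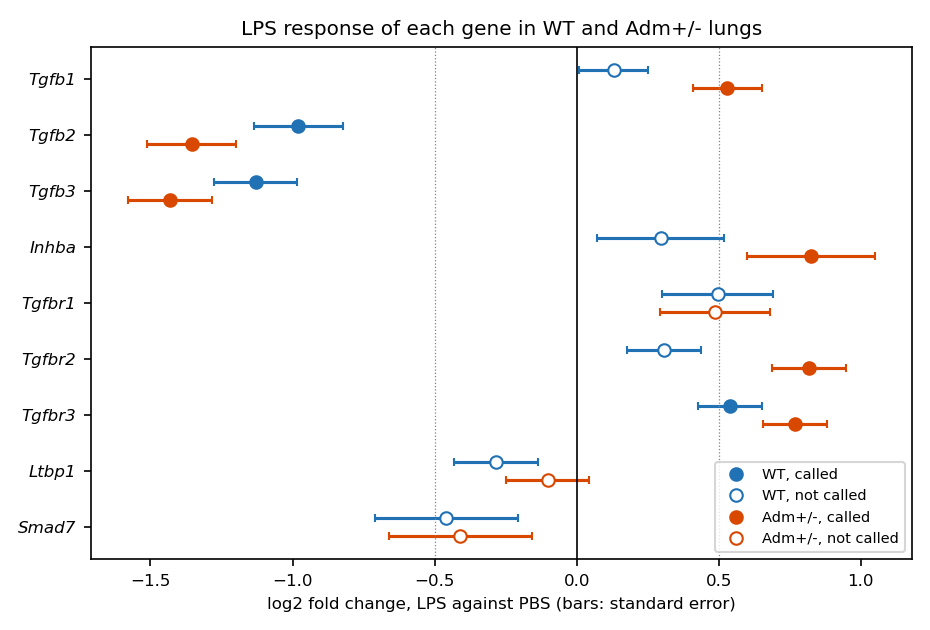
Log2 fold change of LPS against PBS for each gene (points, with the standard error as bars), blue for WT and orange for Adm+/- mice; filled points are called, open points are not, and dotted lines mark 0.5 in each direction. The points of *Tgfb2* and *Tgfb3* lie furthest left in both colours, and the widest gaps between the colours are those of *Inhba* (0.30 and 0.82) and *Tgfbr2* (0.31 and 0.82).

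*Smad7* (ENSMUSG00000025880, chr18:75367529-75395935, plus strand), which blocks the type I receptor and recruits ubiquitin ligases to it, had 176, 177 and 339 CPM in WT PBS and 137, 179 and 187 CPM in WT LPS. Adm+/- lungs had 273, 176 and 183 CPM in PBS and 158, 149 and 169 CPM in LPS. The high values of 339 and 273 CPM were those of WT PBS replicate 5 and Adm+/- PBS replicate 6. With all libraries the log2 fold change was -0.46 ± 0.25 in WT (edgeR adjusted p = 0.21) and -0.41 ± 0.25 in the Adm+/- mice (adjusted p = 0.243), and without these 2 it was -0.07 (adjusted p = 0.696) and -0.18 (adjusted p = 0.274).

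*Ltbp1* (ENSMUSG00000001870, chr17:75005568-75392512, plus strand), the latent TGF-beta binding protein, had 165, 149 and 223 CPM in WT PBS, 147, 162 and 133 CPM in WT LPS, 203, 161 and 167 CPM in Adm+/- PBS and 165, 170 and 160 CPM in Adm+/- LPS. The same 2 libraries were again the highest of their groups. The log2 fold change was -0.28 ± 0.15 in WT (edgeR adjusted p = 0.187) and -0.10 ± 0.15 in the Adm+/- mice (adjusted p = 0.636), and without both it was -0.10 (adjusted p = 0.462) and 0.01 (adjusted p = 0.968).

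**Figure D4:**
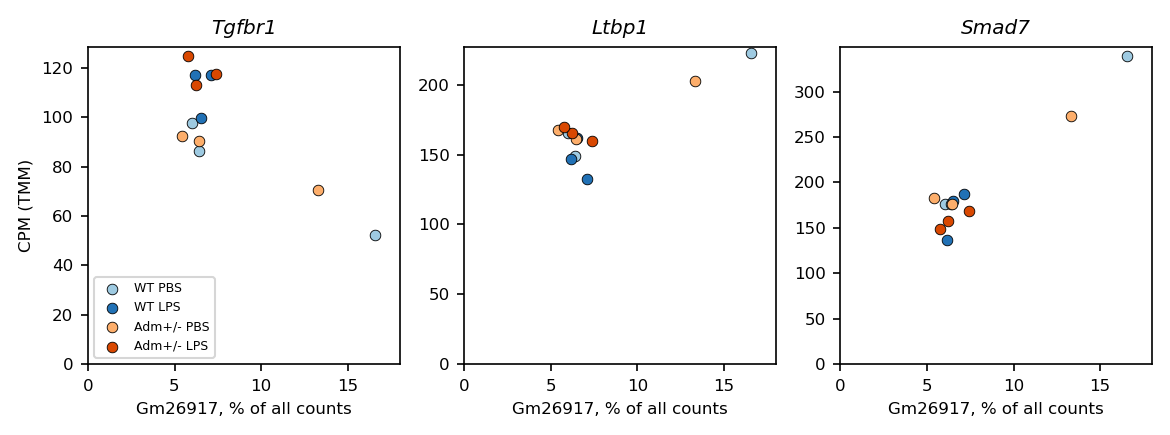
TMM-scaled CPM of *Tgfbr1*, *Ltbp1* and *Smad7* (vertical axes from 0) against the share of all counts taken by *Gm26917* (%), 1 point per lung, coloured by group. The 2 lungs at 13.3% and 16.6% hold the lowest *Tgfbr1* and the highest *Ltbp1* and *Smad7* values of all 12.

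Per kb of exon, *Smad7* (51.0 ± 20.8 CPM per kb in WT PBS, SD, n = 3) and *Tgfbr2* (50.3 ± 8.7) stood at the top and did not differ beyond their spread. *Tgfbr3* followed at 26.4 ± 2.8 CPM per kb, and from there *Tgfb1*, *Tgfb2*, *Ltbp1*, *Tgfb3* and *Tgfbr1* each overlapped the next gene down to 12.1 ± 3.6, while *Inhba* stood alone at 0.828 ± 0.165. Adm+/- PBS lungs differed from this order only in *Tgfb2* (23.6 ± 3.8) lying above *Tgfb1* (19.1 ± 2.6), and *Tgfb3* above *Ltbp1*, each overlapping the other, and in *Tgfbr1* standing clear of *Ltbp1*. The place of *Smad7* in PBS rested on WT replicate 5 (75.0) and Adm+/- replicate 6 (60.5 CPM per kb). In the other WT PBS lungs *Smad7* had 38.9 and 39.1, and *Tgfbr2* 41.3 and 58.6. In the other Adm+/- PBS lungs *Smad7* had 38.9 and 40.5, and *Tgfbr2* 40.7 and 40.4. The order in WT LPS was *Tgfbr2* (62.2 ± 5.4), then *Tgfbr3* (38.3 ± 4.4) and *Smad7* (37.1 ± 6.0), which overlapped, then *Tgfb1*, *Tgfbr1*, *Ltbp1*, *Tgfb2* (10.3 ± 1.7), *Tgfb3* (7.38 ± 0.97) and *Inhba* (1.02 ± 0.07). Adm+/- LPS had the same order, from *Tgfbr2* at 75.2 ± 4.6 to *Inhba* at 1.19 ± 0.30, with no overlap between neighbours. This order too depends on the length used, in a comparison chosen after seeing the data: with longest transcripts *Tgfb1* stood behind *Tgfbr2* at 44.7 ± 3.4 CPM per kb in WT LPS, overlapping *Tgfbr3*, and at 54.0 ± 1.1 in Adm+/- LPS, above *Tgfbr3* without overlap. In PBS it came next after *Smad7* and *Tgfbr2*, at 40.8 ± 5.4 and 37.4 ± 5.2 in WT and Adm+/- mice, and *Ltbp1* stood above *Tgfbr1* in all 4 groups. The ratio of *Tgfbr3* to *Tgfbr2* per kb was 0.529 ± 0.042 in WT PBS, 0.617 ± 0.054 in WT LPS, 0.567 ± 0.058 in Adm+/- PBS and 0.547 ± 0.012 in Adm+/- LPS, and PBS and LPS lungs overlapped in both genotypes, while WT LPS (0.560 and up) lay above Adm+/- LPS (0.557 at most).

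Whether the response differed between genotypes was tested by the interaction term. None of the 9 genes was called, where 0.145% of tested genes were, all of them with a lower response in Adm+/- mice; at an unadjusted p below 0.05 edgeR found 2 of the 9, against 7.85% of tested genes, and DESeq2 and limma-voom called 0. The 2 were *Tgfbr2*, whose response was 0.51 ± 0.18 higher on the log2 scale in Adm+/- mice (edgeR adjusted p = 0.479), and *Tgfb1*, with 0.40 ± 0.17 (edgeR adjusted p = 0.594). For *Tgfb2*, *Tgfb3* and *Inhba* the interaction was -0.38 ± 0.22, -0.30 ± 0.21 and 0.53 ± 0.32 (edgeR adjusted p = 0.78, 0.854 and 0.797). Calls made in Adm+/- and missed in WT mice are thus not shown to differ between the genotypes. Skeletal muscle markers summed to 324 to 1084 CPM in WT LPS and to 11.7 to 24.3 CPM in Adm+/- LPS lungs. Squamous epithelium markers summed to 23.3 to 2798 and to 2.85 to 37.5 CPM in turn. The part of such tissue in comparisons with WT LPS lungs, the calls over all tested genes included, was not tested.

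Between genotypes in PBS, 0 of the 9 genes were called, as was 0% of the tested genes, and edgeR found 0 of the 9 at an unadjusted p below 0.05, as DESeq2 and limma-voom called 0. The log2 fold changes of Adm+/- against WT mice ran from -0.30 for *Inhba* to 0.22 for *Tgfb2*, and all 9 genes overlapped between genotypes, where 4.99% of tested genes did not (2.47% higher and 2.51% lower). In LPS, 0 of the 9 were called against 2.05% of the tested genes, with 1 of the 9 at an unadjusted p below 0.05 (14.3% of tested genes) and 0 called by DESeq2 or limma-voom. That one was *Tgfb1*, at 0.27 ± 0.12 (edgeR adjusted p = 0.33), and *Tgfbr2* was at 0.27 ± 0.13 (edgeR adjusted p = 0.375). For these 2 genes, and for no other of the 9, the 3 Adm+/- LPS lungs lay above the 3 WT LPS lungs, where 24.6% of tested genes did not overlap (12.2% higher and 12.4% lower).

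Marker genes of other cells moved with the treatment. Summed over 6 neutrophil markers, the level was 24.6 to 120 CPM in PBS and 1053 to 1893 CPM in LPS lungs, and 5 of 6 in WT and 6 of 6 in Adm+/- mice were called higher. Summed over 6 macrophage markers it was 175 to 233 CPM in PBS and 382 to 698 CPM in LPS lungs, with 6 of 6 and 5 of 6 called higher. Summed over 6 mesenchymal markers it was 1154 to 1322 CPM in PBS and 968 to 1061 CPM in LPS lungs of WT mice, and 1165 to 1288 and 1062 to 1144 CPM in Adm+/- mice, with 1 and 2 genes called lower and medians of -0.35 and -0.34. For 6 endothelial markers the sums were 2274 to 2452 and 1911 to 2018 CPM in WT and 2349 to 2480 and 2125 to 2357 CPM in Adm+/- mice, with 1 and 2 called lower. These genes went both ways. In Adm+/- mice mean *Kdr* went from 582 to 270 CPM and *Pecam1* from 447 to 585 CPM. *Tek* and *Emcn* were also lower there, and *Cdh5* and *Cldn5* slightly higher. In WT mice *Kdr* went from 581 to 336 CPM, and *Pecam1* alone was higher (440 to 503 CPM). Single mesenchymal markers ranged in log2 fold change from -1.58 (*Wnt2*) to 0.02 (*Pdgfra*) in WT and from -1.55 (*Wnt2*) to 0.44 (*Pdgfra*) in Adm+/- mice. Summed over 6 general leukocyte markers the level was 249 to 330 CPM in PBS and 605 to 902 CPM in LPS lungs, with 5 of 6 called higher in each genotype. None of the mesenchymal, endothelial or macrophage markers was at 0 counts in any library, and 1 of 6 neutrophil markers was at 0 in 2 PBS lungs. The part of cell makeup in the values of the 9 genes was not tested.

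The rest of the pathway was read from 6 lists, whose counts stand against 17.6% of all tested genes called in WT and 25.0% in Adm+/- mice. Of 16 genes of latency and activation, 3 rose and 4 fell in WT mice and 5 rose and 3 fell in Adm+/- mice (medians -0.46 and -0.24). *Lrrc32*, which docks latent TGF-beta on platelets and regulatory T cells, was at 17.8 ± 1.4 CPM (SD, n = 3) in WT PBS, 35.1 ± 3.5 CPM in WT LPS, 14.5 to 17.7 CPM in Adm+/- PBS and 32.7 to 42.5 CPM in Adm+/- LPS, and rose in both (log2 fold change 0.98 and 1.22, edgeR adjusted p = 0.000772 and 0.000113). Platelet and megakaryocyte markers, 6 in all and none at 0 in any library, summed to 33.5 to 45.6 CPM in WT PBS, 57.6 to 66.0 CPM in WT LPS, 26.5 to 39.3 CPM in Adm+/- PBS and 38.5 to 71.6 CPM in Adm+/- LPS, with 1 and 2 of the 6 called higher in WT and Adm+/- mice (medians 0.64 and 0.75), and their part in the *Lrrc32* value was not tested. *Itgb8*, the integrin chain of a known activator of latent TGF-beta, rose by 0.74 and 0.89 on the log2 scale (edgeR adjusted p = 0.00969 and 0.00216). The matrix member *Ltbp2* fell in WT mice (-0.82), a call that held whichever library was left out. *Emilin1* also passed in WT mice (-0.86), but not without both libraries that stood apart (-0.47) and not without any 1 of WT PBS replicate 5, WT LPS replicates 9 and 11 and Adm+/- LPS replicate 12. *Ltbp3* passed in both genotypes (-0.83 and -0.68, and -0.53 and -0.56 without both), though its call was lost in WT mice without LPS replicate 9 and in Adm+/- mice on leaving out any of 5 of the 12 libraries. *Thbs1*, thrombospondin, and *Furin*, the convertase that cuts the precursor, rose in Adm+/- mice (1.13 and 0.76, edgeR adjusted p = 0.00174 and 0.00243), where WT values were 0.20 and 0.27 (adjusted p = 0.489 and 0.19). Against WT mice in LPS, *Thbs1* was called higher in Adm+/- mice without both libraries (0.87, adjusted p = 0.0487) and not with all 12. The WT calls on this list dropped from 7 to 3 without WT LPS replicate 9 and to 5 without both libraries that stood apart.

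Among 7 further genes of the activin arm, of which 6 were tested (*Mstn* had 77 counts in all), 1 rose and 1 fell in WT mice and 2 rose in Adm+/- mice. *Fst*, follistatin, which binds and neutralises activin, stood at 2.30 ± 0.32 and 1.99 ± 0.45 CPM in WT and Adm+/- PBS and rose to 7.87 ± 0.27 and 6.34 ± 0.79 CPM with LPS (log2 fold change 1.78 and 1.67, edgeR adjusted p = 0.000237 and 0.000159). *Inhbb*, the other activin beta subunit, had 26.3 to 52.4 CPM in WT LPS and 122 to 142 CPM in Adm+/- LPS, from 16.7 to 38.7 and 13.5 to 25.6 CPM in PBS. Its rise was called in Adm+/- mice (2.86, edgeR adjusted p = 0.000259) and not in WT mice (0.54, adjusted p = 0.281), where it was called without WT PBS replicate 5 and without both libraries that stood apart (1.02 without both, adjusted p = 0.0253). It was called higher in Adm+/- than in WT lungs with LPS (1.90, adjusted p = 0.0202), while the interaction missed the threshold (2.31, adjusted p = 0.156) with edgeR. That call between genotypes held without both of these libraries (1.89, adjusted p = 0.00311), and was lost without WT LPS replicate 11, without any 1 of the 3 Adm+/- LPS libraries, and with glmTreat. *Gdf11* fell in WT mice (-0.73, edgeR adjusted p = 0.00874). Without both libraries the list had 3 calls in each genotype.

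Of 7 other receptors of the superfamily, 1 rose and 1 fell in WT mice and 1 rose in Adm+/- mice. The type I activin receptor *Acvr1b* stood at 98.0 ± 22.8 and 77.4 ± 4.4 CPM in WT and Adm+/- PBS and rose to 147 ± 37 and 224 ± 8.7 CPM with LPS (log2 fold change 0.59 and 1.53, edgeR adjusted p = 0.0414 and 0.000185). In WT mice its lungs overlapped and its call was lost on leaving out any of 10 of the 12 libraries, and without both libraries that stood apart (0.54, adjusted p = 0.0993). *Acvr1c* fell in WT mice from a low level of 1.91 ± 0.80 CPM (-1.88, edgeR adjusted p = 0.0158), which was lost without WT LPS replicate 9, and in Adm+/- mice it had -1.26, called without both libraries that stood apart (-1.51, adjusted p = 0.0212). Without both libraries the list had 1 call in WT and 2 in Adm+/- mice. Of 8 Smad transducers and their partners, 0 were called in WT mice (2 at an unadjusted p below 0.05 with edgeR, against 36.7% of tested genes, 1 called by DESeq2 and 0 by limma-voom) and 1 rose in Adm+/- mice, the endocytic adaptor *Dab2* (0.70, edgeR adjusted p = 0.0336), a call lost on leaving out any of 5 of the 12 libraries, Adm+/- PBS replicate 6 among them. *Smad2*, *Smad3* and *Smad4*, named here outside the rule for naming genes, had log2 fold changes between -0.12 and 0.23 in both genotypes.

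Of 16 inhibitors and feedback genes, 2 rose and 2 fell in WT mice and 2 rose and 3 fell in Adm+/- mice, with medians of -0.08 and 0.08, so that the counts, 4 and 5 of 16, lay near the shares of all tested genes (17.6% and 25.0%). *Nedd4l*, a ubiquitin ligase of activated Smads, rose (0.71 and 0.97, edgeR adjusted p = 0.0105 and 0.00107) and the decoy receptor *Bambi* fell (-0.85 and -0.91, adjusted p = 0.0281 and 0.0149) in both genotypes. *Bambi* in WT mice had -0.50 without both libraries that stood apart, just past the threshold, and its calls were lost without WT PBS replicate 5 or LPS replicate 9 in WT and without PBS replicate 6 or LPS replicate 12 in Adm+/- mice. The corepressor *Tgif2* passed in both genotypes (-0.77 and -0.73), but its WT call was lost without both libraries (-0.40, adjusted p = 0.0504) and on leaving out any of 9 of the 12, and its Adm+/- call on leaving out any of 5. *Ski* and *Skil* passed in Adm+/- mice (-0.59 and 0.52, edgeR adjusted p = 0.0341 and 0.00933), and both calls were lost without Adm+/- PBS replicate 6 alone and without both libraries (-0.46 and 0.44 without both). The *Ski* call was also lost without Adm+/- PBS replicate 8 or any 1 of the Adm+/- LPS libraries, and the *Skil* call without Adm+/- LPS replicate 2. *Dcn*, a proteoglycan that binds TGF-beta, rose in WT mice (1.71, edgeR adjusted p = 0.0127), a call lost without WT LPS replicate 9, had 0.79 in Adm+/- mice (0.43 without both libraries), and was called lower in Adm+/- than in WT mice with LPS without both (-1.27, adjusted p = 0.0355) and not with all 12. The WT count dropped from 4 to 1 without WT LPS replicate 9, and the Adm+/- count from 5 to 1 without PBS replicate 6 and to 3 without both libraries that stood apart.

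Of 27 genes known as TGF-beta targets, 5 rose and 1 fell in WT mice and 8 rose and 3 fell in Adm+/- mice, although the medians were -0.15 and -0.05. The WT count, 6 of 27, lay near the 17.6% of all tested genes, and the Adm+/- count was 11 of 27 where 25.0% of all tested genes were called; without both libraries that stood apart the counts were 5 and 13. Several of these genes also answer to other inflammatory signals. The cell cycle inhibitor *Cdkn1a* (1.64 and 2.18), *Timp3*, an inhibitor of matrix proteases (1.01 and 1.34), and the lipid kinase *Sphk1* (1.15 and 2.14) rose in both genotypes, as did the collagen crosslinker *Lox* (1.96-fold and 2.06-fold). *Fn1*, fibronectin, rose in Adm+/- mice from 2797 ± 273 to 4412 ± 327 CPM (0.66, edgeR adjusted p = 0.00629) and had -0.01 in WT mice (adjusted p = 0.975), and *Junb* rose in Adm+/- mice (2.18, adjusted p = 0.000462). In WT mice *Junb* stood at 57.3 ± 22.2 CPM in PBS and 99.9 ± 36.5 CPM in LPS. *Adam12*, which is outside the naming rule and was picked after its value was seen, fell in both genotypes (-1.57 and -1.19, edgeR adjusted p = 0.000856 and 0.0019). The collagen genes *Col1a1*, *Col1a2* and *Col3a1*, picked in the same way, were not called (log2 fold changes of -1.11 to -0.57). Without both libraries that stood apart their values were -0.40 to -0.14, and at least 1 of them was called in one genotype when WT PBS replicate 3, 4 or 5 or Adm+/- PBS replicate 6 was left out.

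**Figure D5:**
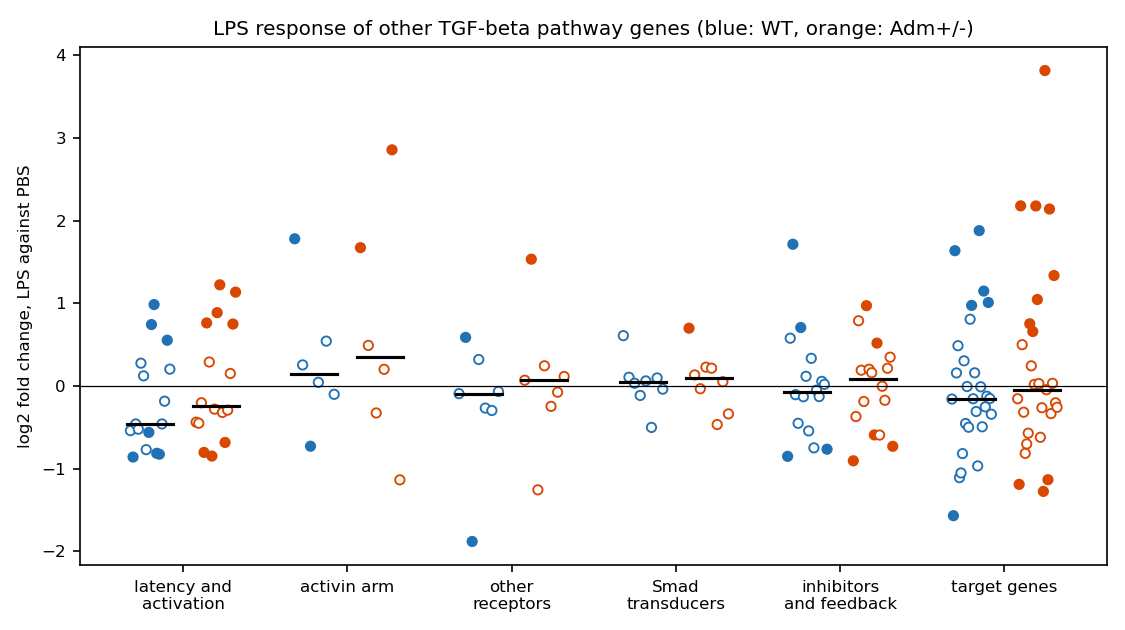
Log2 fold change of LPS against PBS for the tested genes of the 6 lists, blue for WT and orange for Adm+/- mice, 1 point per gene, filled where called; black bars are list medians. Called genes lie on both sides of 0 in most lists, and the medians of the targets are -0.15 and -0.05.

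The interaction was called for 0 genes of every one of the 6 lists by edgeR and limma-voom. At an unadjusted p below 0.05 edgeR found 3 of 16 genes of latency and activation, 1 of 6 of the activin arm, 1 of 7 other receptors, 1 of 8 transducers, 1 of 16 inhibitors and 5 of 27 targets, against 7.85% of all tested genes, and DESeq2 called 1, in the activin arm.

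The genes whose log2 CPM followed a member most closely over the 12 libraries were found by Pearson's r among all tested genes. All 12 libraries share the treatment groups, so r describes likeness only. *Tgfb3* was followed by *Runx1t1* (0.99), *Zfp462* (0.99) and *Tnfrsf19* (0.99), and *Tgfb2* by *Rcbtb2* (0.99), *Runx1t1* (0.99) and *Zfp462* (0.99), while *Tgfb2* and *Tgfb3* had an r of 0.98 with each other. *Tgfb1* was followed by *Ptges2* (0.98), *Furin* (0.97) and *Hip1r* (0.97), *Tgfbr2* by *Jak3* (0.99), *Rtn4rl2* (0.98) and *Tmem176b* (0.98), *Tgfbr3* by *Mlxip* (0.99), *Soat2* (0.99) and *Lpin1* (0.98), and *Inhba* by *Abhd16b* (0.92), *Agr3* (0.92) and *Cfap206* (0.92). Without both libraries that stood apart, these r values were 0.97 to 0.98 for *Tgfb1*, 0.99 for *Tgfb2*, 0.99 to 0.996 for *Tgfb3*, 0.98 to 0.99 for *Tgfbr2* and *Tgfbr3* and 0.86 to 0.89 for *Inhba*, but which genes led changed: those of *Tgfb1* then ranked 16, 24 and 55 and those of *Tgfb2* 10, 17 and 22, while *Jak3* remained first for *Tgfbr2* and *Zfp462* was first for *Tgfb3*. *Smad7*, for which the naming rule set no such search, was followed by *Smad6* (0.99), another inhibitory Smad, and this was 0.95 without both libraries that stood apart.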

How the data were processed

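Raw counts per gene of 12 mouse lung libraries were used as the authors deposited them: per the labels and the study's methods, rRNA was depleted and a directional kit used, reads were aligned with HISAT2 to mm10 and assigned to Gencode genes by featureCounts, and the submitters' processing notes also name Trim Galore. The strand option and the annotation release are not given in the sources used here. Positions and exon lengths were taken from Gencode M21, in which 99.7% of the genes were found, and promoters from RefSeq (GRCm38.p6).

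Analyses were run in R 4.3.3. Of 21950 protein-coding genes, the 15885 that passed filterByExpr over the 4 groups were TMM-normalized and tested with edgeR 4.0.16 (quasi-likelihood F-test, 1 coefficient per group, all 12 libraries, 8 residual degrees of freedom), with Benjamini-Hochberg adjustment over all genes tested. The study itself used limma, run here as an alternative (limma-voom 3.58.1), beside DESeq2 1.42.0, RLE size factors, other gene filters, glmTreat, fits of 6 libraries and leaving out libraries. The scripts were tested on simulated data. Log2 CPM used a prior count of 2. No pair of libraries within a group had identical counts or counts within sampling noise.

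The members, lists and alternatives were chosen with earlier results of these data known. Named beside the 9 genes are, per list, called genes with the 4 largest mean levels and the 4 largest fold changes, the 3 genes of highest r with each called member, markers and *Adm*. Of the marker genes, *Snorc* was not matched and *Sprr3* and *Matn1* were not tested. Among the 9 genes, depth limits *Inhba* most, with 62 to 260 counts per library. One gene that this rule names is not reported here.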

Additional observations from a re-analysis of the deposited data

How the results depend on the processing

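The calls of *Tgfb2* and *Tgfb3* in both genotypes and of *Tgfbr2* and *Tgfbr3* in Adm+/- mice kept their direction and their side of the threshold under all 21 alternatives. Members called numbered 2 to 3 in WT and 5 to 6 in Adm+/- mice when single libraries were left out, and 2 and 4 with glmTreat, which also left 1 and 3 of the latency genes called, 1 and 1 of the inhibitors and 4 and 7 of the targets, in WT and Adm+/- mice in turn; DESeq2 called 10 targets in WT mice, against 6. Over all tested genes, the WT response had 2791 genes called, with 1435 (without WT LPS replicate 9) to 3034 when single libraries were left out, 1001 with glmTreat and 1142 in a fit of 6 libraries; the Adm+/- response had 3968, with 3053 to 4498 and 1695 with glmTreat; the interaction had 23, with 5 to 61, 168 with DESeq2, 1 with limma-voom and 13 with glmTreat; and the genotypes differed in LPS for 325 genes, with 87 to 552, 803 with DESeq2, 133 with glmTreat and 565 without WT PBS replicate 5 and Adm+/- PBS replicate 6. The cause of these moves was not tested, apart from glmTreat testing against a larger change and the smaller fits holding fewer libraries.

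Values that changed sign were of uncalled genes. Leaving out 1 library, or the 2 that stood apart, the Adm+/- response of *Ltbp1* ran from -0.17 to 0.011, the interaction of *Tgfbr1* from -0.19 to 0.22 and of *Smad7* from -0.33 to 0.29, the genotype difference in PBS of *Tgfb3* from -0.018 to 0.20, *Tgfbr1* from -0.12 to 0.28, *Ltbp1* from -0.13 to 0.17 and *Smad7* from -0.36 to 0.26, and that in LPS of *Smad7* from -0.21 to 0.0051. Without both libraries that stood apart, the Adm+/- response of *Ltbp1* was 0.0057, the interaction of *Tgfbr1* 0.10 and of *Smad7* -0.11, and the genotype difference in PBS of *Tgfbr1* -0.01, *Ltbp1* 0.06 and *Smad7* 0.02. No paired analysis was possible because the replicate numbers are library numbers that no 2 groups share. With 3 lungs per group, changes of 0.5 on the log2 scale lie at the threshold of a call: *Tgfb1* in Adm+/- mice, *Tgfbr1* and WT *Tgfbr3* had such values.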

Other observations

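A gene inside the *Inhba* region moved much further than *Inhba*. *B230303A05Rik* (ENSMUSG00000113701), annotated as a transcribed processed pseudogene on the opposite strand and sharing 0 exon bases with *Inhba*, was picked after its values were seen. It had 3, 1 and 0 counts in WT PBS, 0, 3 and 1 in Adm+/- PBS, 288, 96 and 93 in WT LPS and 150, 136 and 223 in Adm+/- LPS. Against the floor of 3 counts per library, its level was at least 29.8-fold higher with LPS in WT and at least 40.7-fold higher in Adm+/- mice. Its reads and those of its parent gene cannot be told apart in these counts, so its level is uncertain.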
